A study of Mus musculus with 7 samples.

Results

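Nasal mesenchyme that carried Pax9 together with Mecom or Lgr5 was examined in single-cell RNA sequencing of the mouse nose at embryonic day 14.5. A cell belonged to it with at least 1 UMI (unique molecular identifier, 1 per captured transcript) of Pax9, at least 1 of Mecom or Lgr5, at least 1 of the mesenchymal genes Prrx1 or Twist1, and 0 of Epcam, Pecam1, Sp7, Acan and Twist2. The last 5 genes mark epithelium, endothelium, bone-forming cells, cartilage and dermis. This gave 999 cells out of 13181 mesenchyme cells that passed the same Prrx1, Twist1 and exclusion criteria, and out of 31465 cells kept in all. These 999 cells are called members here, and the 12182 mesenchyme cells outside the rule are called other mesenchyme. The cells were chosen by the counts of these 10 genes, so their values are given as a description, with no test.

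The series profiled whole noses to relate the terminal nerve and gonadotropin-releasing hormone neurons to olfactory development. The wild-type (WT) libraries came from CD1 IGS mice. A pair of libraries came from 1 suspension of a single ProKR2iCre/R26tdTomato nose (allele Prokr2em1(cre)Cfe from a B6;SJL line, joined to Gt(ROSA)26Sortm14(CAG-tdTomato)Hze from a Cg line), in which Cre recombinase is made from Prokr2 and switches on a red reporter. All noses were taken at embryonic day 14.5. Papain and collagenase released the cells, which were frozen and later thawed for capture on the 10x platform, which reads the 3′ ends of transcripts. One of the Cre libraries was sorted and one was not, but the sample labels do not say which. Numbered 1 and 2 below under the name Prokr2Cre, they were described, not tested or averaged. The labels' protocol names 5 WT noses without tying each to a library. P-values therefore measure how the difference between 2 classes of a capture varied over captures, not over known noses.

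WT replicates 3 and 4 shared 7386 cell barcodes, of 7396 and 7408, so replicate 3 was left out and 4 WT captures remained. In the remaining pairs at most 34 barcodes were common to both. Libraries held between 16773781 and 89800259 UMIs, and kept cells had a median of 5126.5 to 13692 UMIs. WT replicate 1 stood apart: Dlgap1, Tmem132d, Kcnd2, Csmd1, Zfp804a and Foxp2, genes that span long stretches of the genome, were lower in both its members and its other mesenchyme than in the other WT captures, and its files name Cell Ranger 6.0.1 where the other WT files name 7.0.0. Whether introns were counted in each is not given in the sources used here, and its part in the results was not tested.

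Pax9 is a paired-box transcription factor required for the palate and the teeth. Mecom is a zinc-finger transcription factor with roles in blood stem cells and in the developing face. Lgr5 is a cell-surface receptor for R-spondins, secreted proteins that strengthen Wnt signalling, and is itself a common target gene of that pathway. The mesenchyme of the face comes largely from neural crest and exchanges Wnt, BMP, FGF, hedgehog and retinoic acid signals with the nasal and oral epithelium.

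Members made up between 5.26% and 12.3% of the mesenchyme of a WT capture. The share was 5.26% in WT replicate 1 (172 of 3267 cells, 95% Clopper-Pearson interval 4.52 to 6.09), 6.37% in replicate 2 (274 of 4300, 5.66 to 7.14), 9.41% in replicate 4 (324 of 3444, 8.45 to 10.4) and 12.3% in replicate 5 (145 of 1181, 10.5 to 14.3). The intervals cover counting error only. The mean was 8.33% ± 3.16 (SD, n = 4), and the intervals of replicates 1 and 5 did not overlap. Prokr2Cre library 1 held 50 members of 618 mesenchyme cells, or 8.09% (6.06 to 10.5), and Prokr2Cre library 2 held 34 of 371, or 9.16% (6.43 to 12.6). Both fell inside the WT range at these depths.

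Detection of single UMIs depends on depth. All kept cells were therefore thinned to 3000 UMIs, leaving out 409, 1416, 578 and 311 shallower cells of any type in WT replicates 1, 2, 4 and 5, and the whole rule was applied again, its exclusions included. The mesenchyme then held 3468, 3896, 3464 and 1592 cells and is not the same set of cells as before. The share of members in it was 2.54%, 4.24%, 6.15% and 5.90%, a mean of 4.71% ± 1.68, lowest in WT replicate 1. It was 4.18% (34 of 813, 2.91 to 5.80) in Prokr2Cre library 1. In Prokr2Cre library 2 it was 2.13% (11 of 516, 1.07 to 3.78), below every WT capture. That interval overlapped those of WT replicates 1 (2.04 to 3.12) and 2 (3.62 to 4.92). The median UMI count of members was close to that of other mesenchyme in each WT capture, at 7358 against 8071, 4436.5 against 4530, 5707 against 5266.5, and 10397 against 10420.5.

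Mecom and Lgr5 were both detected more often in mesenchyme that carried Pax9. Mecom was found in 11.8%, 27.5%, 33.8% and 30.2% of Pax9-positive cells of WT replicates 1, 2, 4 and 5, and in 8.06%, 8.57%, 9.42% and 16.4% of Pax9-negative cells. Lgr5 was found in 9.38%, 13.0%, 21.7% and 20.5% of Pax9-positive cells and in 7.42%, 5.29%, 6.05% and 9.88% of Pax9-negative cells. Both differences held in each of the 4 captures; the depth of the cells was not matched here. In 198 immune cells of all libraries, which should lack these genes, Pax9 and Lgr5 were each seen in 1.52% and Mecom in 4.55%, although WT immune cells were deeper, with medians of 8950 to 24061 UMIs against 4526.5 to 10414 in mesenchyme. Among cells near the edge of the rule, 121 members carried a single UMI of Pax9 and a single UMI of Mecom and Lgr5 together. Just outside it were 1967 mesenchyme cells with Pax9 alone and 1461 with Mecom or Lgr5 but no Pax9.

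Within the members, 555 cells were Mecom-only, 281 were Lgr5-only and 163 carried both. Mecom-only cells were 51.2%, 63.9%, 52.2% and 51.7% of members in WT replicates 1, 2, 4 and 5. Lgr5-only cells were 38.4%, 23.4%, 25.3% and 29.0%, and cells with both were 10.5%, 12.8%, 22.5% and 19.3%. Mecom-only cells were the most common kind in every WT capture. The Prokr2Cre libraries lay on either side: Lgr5-only cells were 12% of 50 members in library 1 and 61.8% (43.6 to 77.8) of 34 members in library 2.

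**Figure D1:**
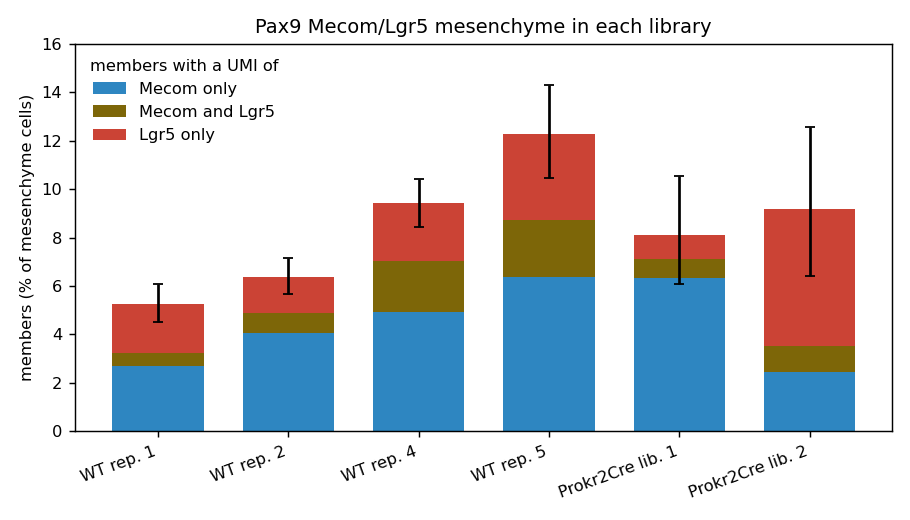
Share of mesenchyme cells, in percent, that met the rule in each library, with members split into Mecom-only, both and Lgr5-only cells and 95% Clopper-Pearson intervals for the total. The WT captures run from 5.26% to 12.3%, and both Prokr2Cre libraries lie inside that range. With the rule on thinned counts, library 2 held 2.13% (1.07 to 3.78) against 2.54% to 6.15% in WT. Its interval overlapped that of WT replicate 1 (2.04 to 3.12).

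For the genes that chose the cells, levels were summed over the cells of a class and scaled to a total of 1000000 UMIs, giving CPM. Pax9 (chromosome 12, 56691767 to 56712822, plus strand, mm10) stood at 287, 490, 422 and 395 CPM in members of WT replicates 1, 2, 4 and 5, against a mean of 55.9 in other mesenchyme. Mecom (chromosome 3, 29951296 to 30548008, minus strand) ranged from 151 CPM in replicate 1 to 779 in replicate 5, and Lgr5 (chromosome 10, 115450311 to 115587780, minus strand) from 102 to 288. Replicate 1 was the lowest for all 3. Among the genes that the rule asked of all mesenchyme, Prrx1 was at 643 CPM ± 138 and Twist1 at 559 ± 55.6 (SD, n = 4), against 552 and 371 in other mesenchyme. Pdgfra, a receptor found on most mesenchyme, stood at means of 127 and 123 CPM and did not pass the test described below (log2 difference 0.00, edgeR adjusted p = 0.994). It was picked after its values were seen. Of the other general mesenchyme genes that the rule did not use, Col1a1 and Col3a1 were lower in members, and Lum and Dcn did not pass the test. The place of the cells in the nose was not measured.

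Members were compared with other mesenchyme of the same capture to find what else set them apart. Genes of Wnt and activin signalling, Dkk1, Rspo2 and Inhba, were higher in members in each of the 4 WT captures, together with the transcription factors Gsc, Osr2, Tbx2, Gata2 and Gata3. Genes of bone, Ibsp, Ifitm5, Spp1, Alpl and Runx2, were lower in members. Counts were summed per capture and class and tested with edgeR's quasi-likelihood test with the capture as block, and p-values were adjusted by Benjamini-Hochberg over all 12816 genes tested (n = 4 pairs). Of these, 1370 genes, or 10.7%, passed an adjusted p of 0.05, 653 higher in members (5.1%) and 717 lower (5.59%). In such sums, fewer expressing cells and less RNA per cell cannot be told apart. The values of members lay above all values of other mesenchyme in 1.75% of tested genes and below all of them in 1.54%. The list counts given below for this comparison are to be read beside these shares over all tested genes. Without the capture as block the same test called 7 genes, with 625 at an unadjusted p under 0.05, and with no filter on low counts it called 653 higher and 1332 lower.

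Dkk1, a secreted inhibitor that blocks the Wnt co-receptors Lrp5 and Lrp6, had the largest rise on the Wnt list (chromosome 19, 30545863 to 30549665, minus strand). It stood at 53.5, 55.1, 65.9 and 42.4 CPM in members and at 6.92, 11.9, 16.9 and 9.69 CPM in other mesenchyme, so the groups did not overlap. The log2 fold change was 2.23 ± 0.14 (SE; edgeR adjusted p = 5.71e-07). A Dkk1 UMI was seen in 10.4% of members and 3.61% of other mesenchyme on average. In the Prokr2Cre libraries the ratio of members to other mesenchyme was 2.93 (counting interval 1.58 to 5.12) in library 1 and 2.99 (1.16 to 6.88) in library 2.

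Rspo2, a ligand of Lgr receptors that raises Wnt signalling (chromosome 15, 43020794 to 43170826, minus strand), was also higher. Its level was 28.1, 124, 103 and 102 CPM in members and 5.30, 30.0, 36.3 and 40.1 CPM in other mesenchyme. The ranges overlapped only through replicate 1, which was low in both classes, and the log2 fold change was 1.68 (edgeR adjusted p = 2.81e-06). Sfrp1 and Sfrp2, secreted Wnt-binding proteins, rose by log2 0.93 and 1.09, and Ror1, a receptor for Wnt5a-type signals, by 0.82. Wnt4 and Wnt6, Wnt ligands, fell by 2.31 and 2.70 on the log2 scale, from means of 5.86 and 4.97 CPM. Rspo1 fell by 0.72. Of 51 Wnt pathway genes, 46 were tested, and 11 were higher and 8 lower with a median log2 change of -0.07, against 10.7% called and a median of 0.00 over all genes. Of the 8 lower genes, 5 kept the call without WT replicate 2, 4 without replicate 4 and 5 when cells carrying markers of other cell types were left out. The other two Lgr receptors, Lgr4 and Lgr6, did not pass the test (log2 0.08 and -0.54).

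Inhba, which encodes the activin A subunit (chromosome 13, 16011851 to 16031621, plus strand), was at 109.7, 167, 163 and 188 CPM in members and 37.6, 30.7, 36.9 and 48.7 in other mesenchyme. Every member value lay above every other value (log2 1.97 ± 0.11, edgeR adjusted p = 2.89e-07). The same ratio was 2.27 in Prokr2Cre library 1 and the opposite, 0.612 (0.453 to 0.81), in library 2, where other mesenchyme held 173 CPM. Among genes of BMP and TGF-beta signalling, Id1, a BMP target, rose by log2 0.70 and the inhibitory Smad7 by 0.65. Bmper, an extracellular BMP regulator, rose by 0.93. Bmp4, a ligand, rose by 0.45, a call lost at log2 0.26 when cells with markers of other cell types were left out, and went the other way in Prokr2Cre library 2. Of 42 genes, 41 were tested, 9 were higher and 5 lower, with a median of 0.16. Of the 5 lower genes, 2, 2, 3 and 1 kept the call without WT replicate 1, 2, 4 and 5, and 1 without the cells carrying other markers.

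Etv1, Etv4 and Etv5, transcription factors induced by FGF, rose by log2 0.69, 1.04 and 0.82, and Flrt2, an FGF receptor partner, by 1.20. For Etv4 the call was lost without WT replicate 2, at log2 0.86, and, when cells carrying markers of other cell types were left out, at 0.74; the Etv1 call was lost there too, at 0.38. Fgfr2, a receptor, fell by 0.53. Of 22 FGF pathway genes, 21 were tested, 8 were higher and 3 lower, and 4 of the 8 kept the call when those cells were left out. In the retinoic acid pathway the synthesis enzymes Aldh1a3 and Aldh1a2 rose by log2 1.53 and 0.94. Aldh1a3 (chromosome 7, 66390890 to 66427517, minus strand) was at 34.8, 65.3, 64.4 and 34.1 CPM in members against 13.8, 20, 17.1 and 14.5 in other mesenchyme. The WT classes did not overlap, but the Prokr2Cre libraries disagreed, with ratios of 0.345 (0.0926 to 0.902) in library 1 and 8.97 (5.80 to 13.9) in library 2. Of 19 retinoic acid genes, 15 were tested, 4 were higher and 2 lower, and of the 2 lower genes, 1 kept the call without WT replicate 1, 1 without replicate 2, 0 without replicate 4 and 1 without the cells carrying other markers. Of 15 hedgehog pathway genes, 11 were tested, 2 were higher and 3 lower; Hhip, which binds and limits hedgehog ligands, rose by 0.91 in WT but went the other way in both Prokr2Cre libraries. Of the 2 higher hedgehog genes, 1 kept the call without WT replicate 1, 2 or 5 or without the cells carrying other markers, and of the 3 lower ones, 1 kept it without replicate 1 or 4.

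Transcription factors of the face moved in both directions. Gsc (goosecoid, a homeobox gene; chromosome 12, 104471209 to 104473330, minus strand) was at 183, 229.8, 198 and 118 CPM in members and 72.9, 65.4, 52.8 and 45.2 in other mesenchyme. Osr2, a zinc-finger gene needed for palate growth (chromosome 15, 35296098 to 35303305, plus strand), was at 167, 200.4, 135 and 188 CPM against 67.1, 75.0, 59.3 and 81.1. Neither gene's groups overlapped, with log2 fold changes of 1.56 ± 0.10 and 1.22 ± 0.06 (edgeR adjusted p = 4.06e-07 and 6.74e-08). For Gsc the ratio in Prokr2Cre libraries 1 and 2 was 6.87 (5.49 to 8.56) and 11.4 (8.69 to 14.9), and for Osr2 it was 1.81 (1.43 to 2.28) and 3.60 (2.81 to 4.60). Tbx2 and Tbx3, T-box repressors, rose by 1.39 and 1.14. Nr2f2 rose by 0.95, Pax3 by 0.77 and Meis2 by 0.66.

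Other factors were lower in members. Foxd1, a forkhead gene, was at 15.4, 8.81, 12.2 and 24.4 CPM in members and at 39.2, 39.9, 50.3 and 41.3 in other mesenchyme, without overlap (log2 -1.57, edgeR adjusted p = 0.00011). Dlx5, a homeobox gene of the lower jaw and of bone, was at 10.7, 8.07, 7.81 and 14.8 CPM in members against 25.1, 25.7, 23.7 and 25.7, also without overlap. Dlx5 had a ratio of 1.01 (0.316 to 2.49) in Prokr2Cre library 1. Tbx18, Osr1 and Tfap2b fell by 1.83, 1.04 and 0.94 on the log2 scale, but the Tfap2b ratio was 1.41 (1.12 to 1.76) in Prokr2Cre library 2. Of 53 listed factors, 49 were tested, 13 were higher and 12 lower, so 51.0% were called against 10.7% of all genes, with a median log2 change of 0.12. Of the 13 higher factors, 8 kept the call when cells carrying markers of other cell types were left out. The palate gene Msx1 did not pass the test (log2 -0.58, edgeR adjusted p = 0.0661).

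Gata2 and Gata3, zinc-finger factors that were on no list and were picked after their values were seen, both stood higher. Gata2 was at 105, 137, 149 and 101 CPM in members and 17.1, 42.8, 38.2 and 36.7 in other mesenchyme. Gata3 (chromosome 2, 9857078 to 9890034, minus strand) was at 22.7, 43.3, 74.2 and 40.5 CPM against 5.98, 10.3, 16.8 and 14.9. Both had a log2 fold change of 1.86 and no overlap between the groups (edgeR adjusted p = 9.64e-07 for Gata2 and 1.69e-06 for Gata3).

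The 12 genes with the largest rise at a mean of 20 CPM or more included Dkk1 and Inhba. March1, a membrane-bound ubiquitin ligase, led with 3.35, 41.8, 53.2 and 29.6 CPM in members against 0.432, 4.02, 4.09 and 1.94 (log2 3.53 ± 0.19, edgeR adjusted p = 1.71e-07). Alkal2, a ligand of the receptors Alk and Ltk, was at 23.4, 26.4, 21 and 28.3 CPM against 2.92, 3.97, 2.60 and 6.18, with no overlap (log2 2.66). Inmt, a methyltransferase of small amines, rose by 2.51 (4.02 against cells with none of Pax9, Mecom and Lgr5), and Dach1, a nuclear cofactor, by 2.14. St8sia4, which adds polysialic acid to cell-surface proteins, rose by 2.19, Dlgap1, a synaptic scaffold protein, by 2.10, Pde8b, a cAMP phosphodiesterase, by 2.07, Zfp804a, a zinc-finger gene, by 2.09 and the transcript Gm31243 by 2.42. Slc25a21, a mitochondrial carrier, rose by 3.50 (5.69 against cells with none of the 3 genes), but it overlaps Pax9 by 189 bases on the opposite strand, and the antisense transcript Gm15524 (log2 2.06) overlaps it by 1198, so their values are uncertain beside a rule that used Pax9.

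**Figure D2:**
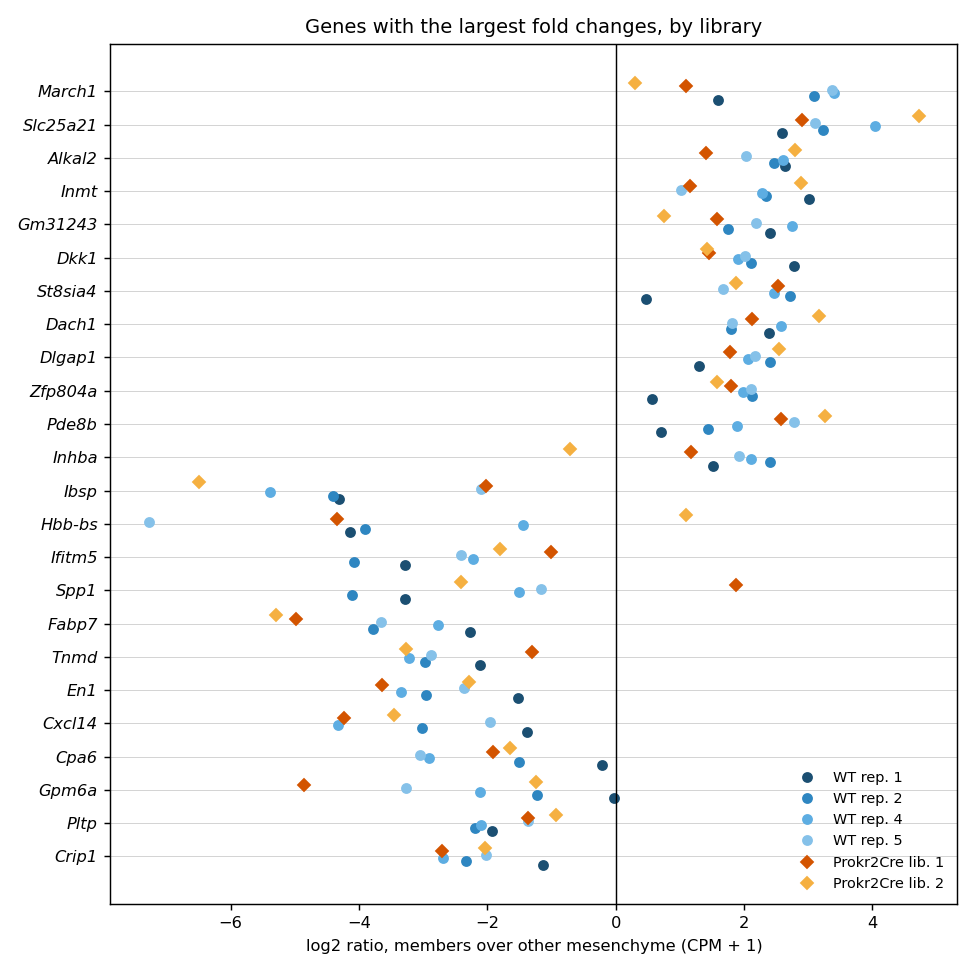
Log2 ratio of CPM + 1 in members to that in other mesenchyme for the 24 named genes (vertical axis: genes; horizontal axis: log2 ratio), with 1 point for each of 4 WT captures and 2 Prokr2Cre libraries. Of the 24 genes, 23 kept the WT direction in Prokr2Cre library 1 and 22 in library 2; Spp1 in library 1 and Inhba and Hbb-bs in library 2 went the other way. Of 172 called genes of the lists, 142 kept it in library 1 and 136 in library 2, and 14 were opposite in both.

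The 12 largest falls were led by genes of bone. Ibsp, bone sialoprotein, was at 28.8, 5.14, 0.488 and 11.6 CPM in members and 591, 129, 61.2 and 52.5 in other mesenchyme (log2 -4.23 ± 0.27, edgeR adjusted p = 5.27e-07). Ifitm5 and Spp1, made by bone-forming cells, fell by 4.02 and 3.72, and Alpl and Runx2 by 1.40 and 1.06. Of 12 bone genes, 8 were tested and 7 were lower with none higher, although the rule removed only cells with Sp7. The summed level of all 12 was 271.7 to 642.4 CPM in members and 684 to 1049 CPM in other mesenchyme, with Bglap and Phospho1 at 0 in members. Tnmd, a tendon gene, fell by 3.06, with a log2 change of -5.98 when thinned counts chose the cells and full counts were summed. En1, a homeobox gene, fell by 3.02, and the chemokine Cxcl14 by 2.93, with -4.83 when cells carrying markers of other cell types were left out. Cpa6, Gpm6a, Pltp and Crip1 fell by 2.67, 2.20, 2.12 and 2.02.

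Markers of several other cell types were also lower in members. Of 7 pericyte and smooth muscle genes tested, 5 fell, among them Rgs5 by 2.54 and Kcnj8 by 2.20, and the summed level of the 9 listed was 82.7 to 218 CPM in members and 205 to 443 in other mesenchyme. Of 6 glial genes tested, 4 fell, including Fabp7, also among the 12 largest falls, by 3.16 (by 1.76 with the rule on thinned counts), with sums of 12.2 to 30.1 against 44.5 to 125 CPM. Without WT replicate 1 or 5, 2 of the 4 glial genes kept the call. Of 7 neuronal genes tested, Snap25 fell by 4.93 and Tubb3 by 1.87 and Map2 rose by 1.07, while a call for a lower Stmn2 was lost without WT replicate 2, 4 or 5 (log2 -1.39, -1.19 and -1.62), with sums of 137 to 187 against 173 to 339 CPM. Hbb-bs, a haemoglobin gene of red blood cells, fell by 4.09, and without WT replicate 4, 6 erythroid genes were lower in place of 1. The erythroid sum was 36.5 to 3569 CPM in members and 257 to 4275 in other mesenchyme. Epithelial sums were 17.5 to 37.3 against 14 to 34.2 CPM, and endothelial sums 25.8 to 35.4 against 20.5 to 44.1, with Cdh5 and Tie1 at 0 in members. Immune sums were 2.20 to 70.8 against 5.53 to 63.3 CPM, with Ptprc, C1qa and Lyz2 at 0 in members, and muscle sums 10.3 to 24.2 against 16.5 to 69.3, with Acta1 at 0.

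When cells with any of 20 such marker genes were left out of both classes, 811 genes were called, of which 729 were among the 1370. All 20 named genes that could still be tested kept their call. A further 153 called genes, from the lists or picked as Gata2 was, could still be tested. Of these, 98 kept their call, 54 lost it and 1, Dcc, changed sign. Of 3 called bone genes that could still be tested, 2 stayed lower. The part of these markers in the remaining differences was not tested.

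Some fibrillar collagens were lower in members, and some other matrix genes were higher, most of which lost the call without WT replicate 2. Col1a1, Col1a2 and Col3a1, the main fibrillar collagens, fell by 1.01, 0.61 and 0.48 on the log2 scale, and Tnc, tenascin-C, fell by 1.78. Col3a1 was at 974, 926, 747 and 1047 CPM in members against 1118, 1344, 1159 and 1288, with no overlap (edgeR adjusted p = 0.000119). In Prokr2Cre library 2 it went the other way, with a ratio of 1.41 (1.29 to 1.55), as did Tnc. Col18a1, a basement membrane collagen, rose by 1.22, and Has2, which makes hyaluronan, by 0.85. Of 46 matrix genes, 45 were tested, 12 were higher and 16 lower, with a median of -0.13. Of the 12 higher genes, 5 kept the call without WT replicate 2, 7 without replicate 4 and 5 when cells carrying markers of other cell types were left out. Lum and Dcn, small matrix proteoglycans, did not pass the test. Of 14 cartilage genes, 12 were tested; Sox6 fell by 0.83, 3 others were lower and only Sox9 was higher, by 0.46, a call lost without WT replicate 4 at log2 0.26. When cells carrying markers of other cell types were left out, 7 cartilage genes were lower.

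Cues for moving axons and cells also split. Epha3 rose by log2 1.27, Sema3a by 0.72, Hgf by 0.72, Nrp1 by 0.66, Slit2 by 0.52 and Cxcl12 by 0.52. Nrp2, Plxna4 and Robo2, receptors for semaphorins and Slits, fell by 0.64, 0.90 and 0.33. Slit2 went the other way in both Prokr2Cre libraries, as did Epha3 and Robo2 in library 2, with ratios of 0.768 (0.637 to 0.919) and 1.13 (1.02 to 1.25). With cells carrying markers of other cell types left out, the calls for Hgf, Cxcl12 and Robo2 were lost at log2 0.54, 0.30 and -0.24. Of 38 guidance genes, 36 were tested, 9 were higher and 6 lower, and 3 of the 6 kept the call there.

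Handling stress and cell division were checked as well. Of 17 stress genes, 11 were higher and none lower, with Junb up by 0.65 and Fos by 0.35, and their sum was 3713 to 9009 CPM in members and 3383 to 6569 in other mesenchyme. The call for Fos was lost without WT replicate 2, at log2 0.25. Of the 11 stress genes, 7 kept the call without replicate 1 and 5 when cells carrying markers of other cell types were left out. Of 25 genes of G2 and M phase, 7 were higher, and of 22 of S phase, 4 were higher, with none lower in either, but Mki67, Nusap1, Pcna, Plk1 and Top2a changed sign when the rule was applied to thinned counts. All 11 calls were lost there, 10 when cells carrying markers of other cell types were left out, 7 when the highest doublet scores were removed, and 5, 10, 2 and 4 without WT replicate 1, 2, 4 and 5. The part of stress and cell division in the other differences was not tested.

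**Figure D3:**
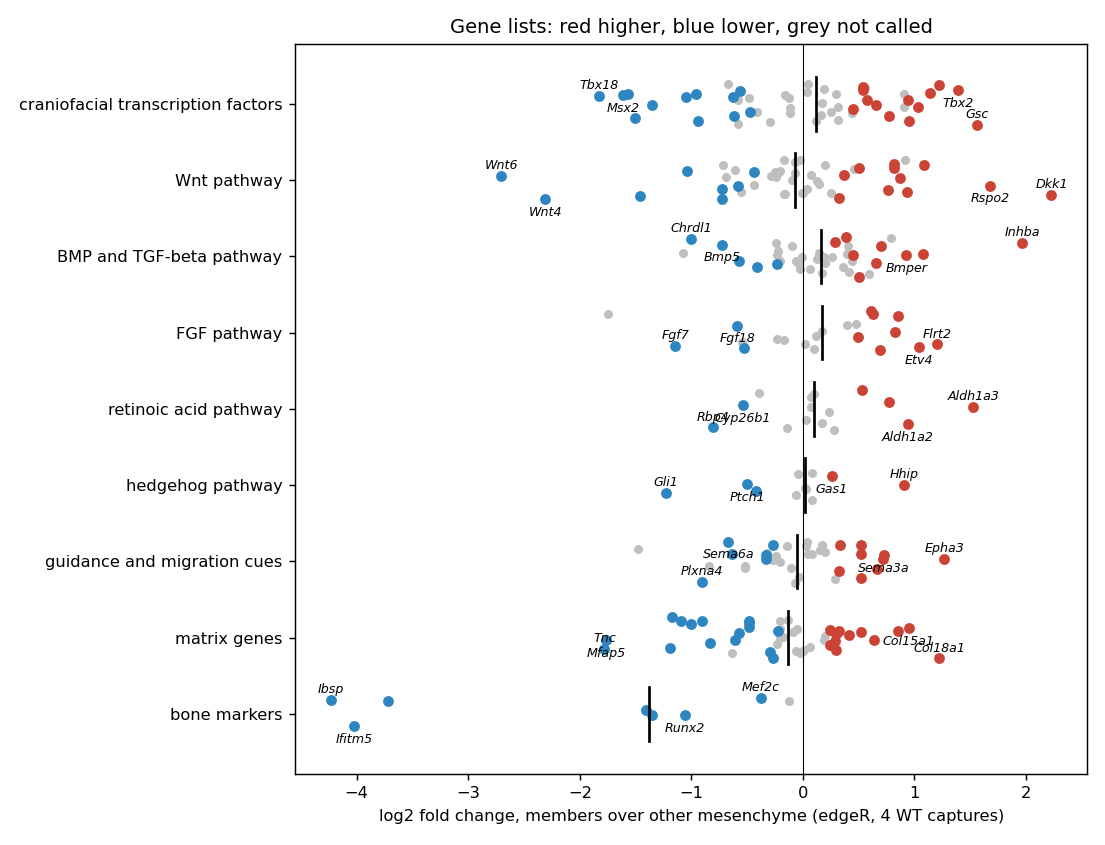
Log2 fold change, members against other mesenchyme, of each tested gene in 9 gene lists (points; red higher, blue lower, grey not called), with a black bar at each list's median. Bone genes lie below 0 with a median of -1.38, while the signalling and transcription factor lists have called genes on both sides of 0.

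A closer comparison was with mesenchyme that carried Pax9 but neither Mecom nor Lgr5, 1801 cells in the WT captures. Dkk1, Col18a1 and Pax1 were higher in members, and Apod, Foxd1, Fst, Tfap2b and Shox2 were lower. Of 10932 genes tested, 445, or 4.07%, were called by the same edgeR test, 212 higher (1.94%) and 233 lower (2.13%), with a median log2 change of -0.012. The 2 classes did not overlap in 0.677% of tested genes where members were higher and 0.338% where they were lower. List counts for this comparison are to be read beside these shares. With the rule applied to thinned counts, 167 were higher and 102 lower, a larger share of them higher. The test without the capture as block called 0 genes, with 166 at an unadjusted p under 0.05, and DESeq2 with the block called 200.

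Dkk1 again had the largest rise among named genes. It was at 8.51, 11.7, 10.4 and 2.19 CPM in Pax9-only cells against 53.5, 55.1, 65.9 and 42.4 in members (log2 2.67 ± 0.19, edgeR adjusted p = 2.07e-06). Rspo2 rose by 1.13 and Sfrp2 by 0.82, and Rspo1 fell by 0.84, while Rspo2 went the other way in Prokr2Cre library 2. Of 40 Wnt genes tested, 5 were higher and 3 lower, and of the 3, 1 kept the call without WT replicate 1 or 5 or without the cells carrying other markers.

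Inhba rose by 0.70, with 71.8, 101, 97.1 and 103 CPM in Pax9-only cells, and its ratio was 0.934 (0.728 to 1.19) in Prokr2Cre library 1. Fst, follistatin, which binds activin, was at 36.1, 34.5, 24.4 and 14.8 CPM in members and 64.7, 82.5, 104 and 67.8 in Pax9-only cells. These groups did not overlap (log2 -1.59 ± 0.17, edgeR adjusted p = 4.69e-05). The Prokr2Cre libraries split, with an Fst ratio of 0.0943 (0.0191 to 0.285) in library 1 and 0.972 (0.796 to 1.18) in library 2. Of 39 BMP and TGF-beta genes tested, 7 were higher and 1, Fst, was lower. Of 18 FGF genes tested, 1 was higher and 1 lower, and of 14 retinoic acid genes 0 were called. The retinoic acid calls against other mesenchyme were thus not repeated against Pax9-only cells.

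Pax1, the closest relative of Pax9 and a gene of the axial skeleton (chromosome 2, 147361925 to 147393295, plus strand), was at 16.1, 19.8, 11.7 and 13.5 CPM in members and 3.69, 10.1, 2.91 and 4.81 in Pax9-only cells. Every member value was the higher (log2 1.55 ± 0.26, edgeR adjusted p = 0.00229). Against all other mesenchyme Pax1 did not pass the test (log2 0.80, edgeR adjusted p = 0.165). Gata3 rose by 1.68, Meis1 by 0.99 and Foxp2 by 0.79. Gata2 was called higher too, but its call was lost without WT replicate 1, 4 or 5, at log2 0.33, 0.48 and 0.61. It was also lost at 0.39 when cells carrying markers of other cell types were left out. Meis2 rose by 1.19, a call that was lost without WT replicate 2 at 0.96. Shox2, a homeobox gene of the palate and limb, was at 53.5, 33.0, 31.7 and 70.7 CPM in members against 121, 61.1, 86.3 and 158 (log2 -1.22, edgeR adjusted p = 2.9e-06). Shox2 and Gata3 went the other way in Prokr2Cre library 2. Of 44 transcription factors tested, 8 were higher and 7 lower.

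Apod, a lipid-binding secreted protein, was at 17.4, 19.8, 22 and 19.9 CPM in members and 63.8, 76.9, 51.5 and 106 in Pax9-only cells (log2 -1.90, edgeR adjusted p = 2.9e-06). Itgbl1 fell by 1.50 in edgeR, and by 2.91 with the rule on thinned counts, but its adjusted p was 0.121 in DESeq2. Prtg fell by 1.38, and its call was lost without WT replicate 4, at log2 -0.79, and at -0.58 when cells carrying markers of other cell types were left out. Csmd1, Tmem132d and Nkain2, genes of membrane proteins, rose by 2.06, 1.98 and 1.90, and Zfp804a by 1.97. These 4 stood at 3.35 CPM or less in both classes of WT replicate 1. Of 11 cartilage genes tested, Col9a3, Col9a1, Col2a1 and Sox6 were higher and none lower; Col2a1 (log2 0.69) lost its call without replicate 2, at an unmoved value, and Sox6 (0.51) without replicate 2 or 4, at 0.50 and 0.40. In Prokr2Cre library 2, Col9a3 and Col9a1 were lower in members, and Sox6 was lower in both libraries, with ratios of 0.638 (0.298 to 1.25) in library 1 and 0.0642 (0.0272 to 0.13) in library 2. Hbb-y, a haemoglobin gene, was called higher through WT replicate 4, at 1973 CPM in its members, and turned to log2 -0.36 without the highest doublet scores.

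Of 17 stress genes, 6 were higher against Pax9-only cells and none lower, Egr1 by 0.53 among them. Of these 6, 3 kept the call without WT replicate 1, 3 without replicate 2 and 3 when cells carrying markers of other cell types were left out, and their part in the other differences was not tested. The ratio kept the WT direction for 10 of 12 named genes in Prokr2Cre library 1, with 2 ties, and for 9 of 12 in library 2, where Apod, Csmd1 and Tmem132d went the other way. Of 71 called genes of the lists, 59 kept it in library 1 and 56 in library 2.

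**Figure D4:**
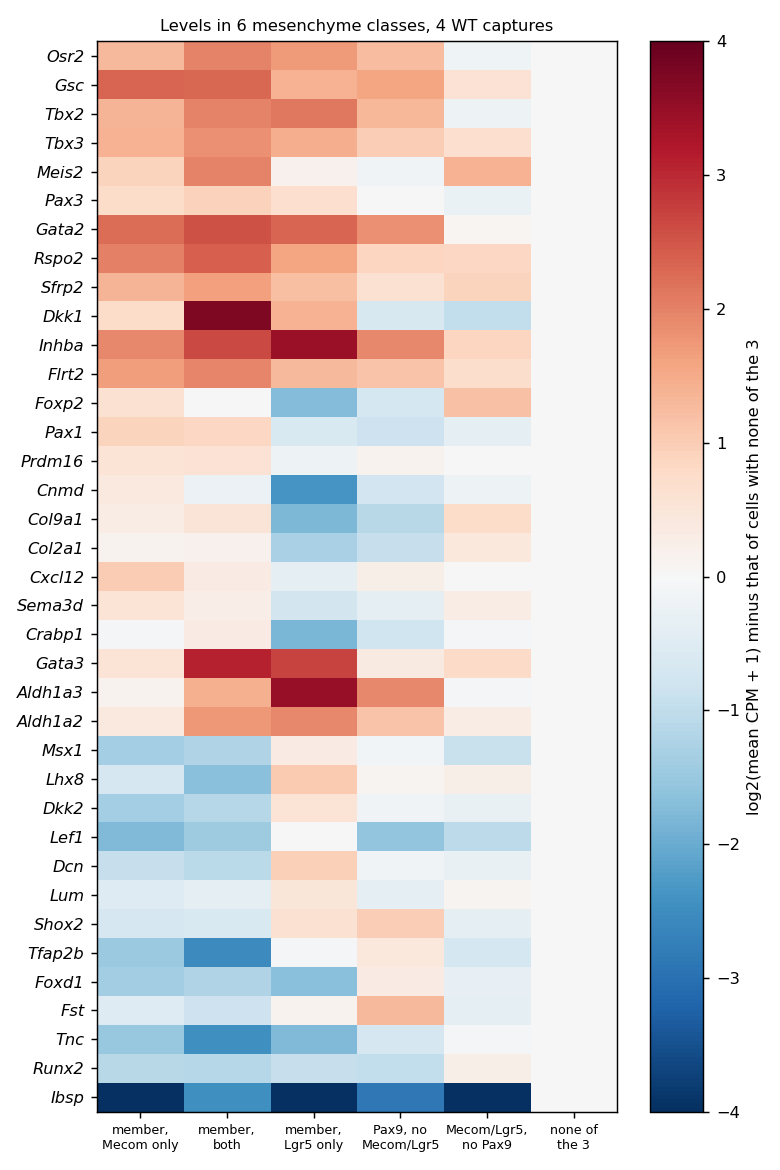
Heat map of log2(mean CPM + 1), the mean taken over 4 WT captures, for 37 genes (rows) in the mesenchyme classes set by Pax9, Mecom and Lgr5 (columns), minus the level in cells with none of the 3. Dkk1 stands out in members with both Mecom and Lgr5, and Aldh1a3 and Inhba in Lgr5-only members.

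Members chosen through Mecom alone differed from those chosen through Lgr5 alone. Mecom-only cells held more of the cartilage-related genes Cnmd, Cytl1 and Col9a1, of the transcription factor Foxp2, of the chemokine Cxcl12 and of Crabp1, which binds retinoic acid. Lgr5-only cells held more Aldh1a3, Aldh1a2, Inhba, Dkk2, Gata3, Msx1 and Dcn. Of 7950 genes tested over 507 and 254 WT cells, 276, or 3.47%, were called by edgeR, 152 higher in Mecom-only cells (1.91%) and 124 higher in Lgr5-only cells (1.56%), with a median log2 change of -0.014. The classes did not overlap in 0.818% of tested genes higher in Mecom-only cells and 0.855% higher in Lgr5-only cells. List counts between these classes are to be read beside these shares. Without the block 0 were called, with 225 at an unadjusted p under 0.05, and DESeq2 called 81. Leaving out WT replicate 2 gave 164 calls and leaving out replicate 4 gave 169.

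Both sides of retinoic acid handling differed. Aldh1a3 was at 25.0, 2.38, 13.1 and 10.2 CPM in Mecom-only cells of WT replicates 1, 2, 4 and 5 and at 51.2, 229, 197 and 71.6 in Lgr5-only cells (log2 -3.41 ± 0.35, edgeR adjusted p = 8.89e-08). Aldh1a2 was at 71.0, 91.8, 51.5 and 33.0 CPM against 122, 221, 218 and 174 (log2 -1.62). Crabp1 was at 575, 398, 224 and 267 CPM against 150.3, 143, 73.4 and 53.2 (log2 1.80, edgeR adjusted p = 3.65e-09). None of the 3 overlapped: the synthesis enzymes were high in Lgr5-only cells and Crabp1 in Mecom-only cells. Crabp2, its relative, went with the enzymes (log2 -0.80). Of 14 retinoic acid genes tested, 2 were higher and 3 lower in Mecom-only cells, and 1 of the 2 kept the call when WT replicate 2, 4 or 5 was left out.

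Wnt genes were called in 1 direction only here. Of 31 tested, 7 were lower in Mecom-only cells and none higher, where 1.56% of all tested genes were lower and 1.91% higher. By sign alone, called or not, 14 of the 31 were higher and 17 lower. Of the 7, 4 kept the call without WT replicate 2, 3 without replicate 5 and 3 without the cells carrying other markers. Dkk2, a secreted Wnt regulator, was at 19.5, 25.0, 57.1 and 49.5 CPM in Mecom-only cells and 99.1, 115, 164 and 204 in Lgr5-only cells, without overlap (log2 -1.97 ± 0.18, edgeR adjusted p = 1.87e-08). Lef1, a nuclear mediator of Wnt signals, fell by 1.72, a call lost without WT replicate 5 at log2 -1.00, and Wnt5a fell by 0.72. Frzb, a secreted Wnt-binding protein, fell by 1.33, also lost without replicate 5 at -1.08. Dkk1 did not pass the test (log2 -0.75, edgeR adjusted p = 0.325).

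Inhba was at 86.3, 113, 103 and 74.9 CPM in Mecom-only cells and 142, 278, 299 and 380.3 in Lgr5-only cells (log2 -1.52, edgeR adjusted p = 4.9e-07), so all Lgr5-only values were the higher. Cxcl12, a chemokine that guides migrating cells, was at 419, 361, 291 and 291 CPM against 183, 132, 92.7 and 106 (log2 1.40 ± 0.14, edgeR adjusted p = 4.6e-08). Sema3d, a secreted semaphorin, rose by 1.24. Of 29 guidance genes tested, 4 were higher in Mecom-only cells and none lower, but only 2, Cxcl12 and Sema3d, kept their call without WT replicate 5.

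Transcription factors divided nearly evenly, 9 of 35 tested being higher in Mecom-only cells and 10 lower. Of the 10 lower genes, 5 kept the call without WT replicate 5, and 5 of the 9 higher and 5 of the 10 lower genes kept it when cells carrying markers of other cell types were left out. Foxp2 (chromosome 6, 14901349 to 15441977, plus strand) was at 34.8, 371, 481 and 566 CPM in Mecom-only cells and 36.3, 97.5, 79.2 and 69.5 in Lgr5-only cells (log2 2.18, edgeR adjusted p = 1.17e-07). It was higher in 3 captures and not in WT replicate 1, and its adjusted p in DESeq2 was 0.089. Nr2f2 rose by 1.12, Eya2 by 1.95 and Gsc by 1.01. Msx1, Lhx8, Mab21l2 and Shox2, factors of jaw and palate, fell by 1.60, 1.87, 1.44 and 1.43. Shox2 went the other way in both Prokr2Cre libraries, and Lhx8, Mab21l2, Gsc and Nr2f2 in library 2, where the intervals of Gsc, 0.564 (0.339 to 0.9), and Nr2f2, 0.496 (0.31 to 0.765), excluded 1. Gata3 fell by 2.24, from 28.1, 74.5, 120.0 and 69.5 CPM in Lgr5-only cells to 12.5, 11.9, 19.6 and 17.8.

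Cartilage genes rose in Mecom-only cells. Cnmd, chondromodulin (chromosome 14, 79637690 to 79662170, minus strand), was at 15.3, 39.3, 37.4 and 63.5 CPM against 3.30, 8.60, 7.73 and 0 in Lgr5-only cells (log2 2.92 ± 0.42, edgeR adjusted p = 2.12e-05). The last value is 0 UMIs in 42 cells. Cytl1 rose by 2.92, Col9a1 by 2.04, Col9a3 by 1.39 and Col2a1 by 1.38. The Col2a1 call was lost when cells carrying markers of other cell types were left out, at log2 1.16. In Prokr2Cre library 1, Cnmd, Col9a1, Col9a3 and Col2a1 all went the other way, Col9a3 with a ratio of 0.21 (0.0998 to 0.447). Of 9 cartilage genes tested, 6 were higher and none lower (of the 6, 2 kept the call without the cells carrying other markers), while cells with Acan, a core gene of mature cartilage, had been removed by the rule. The summed level of the 14 listed genes was 286 to 1277 CPM in Mecom-only cells and 262 to 744 in Lgr5-only cells, lowest in WT replicate 1 for both. It was 407 against 1684 CPM in Prokr2Cre library 1 and 944 against 144 in library 2.

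Dcn and Lum, the small proteoglycans, went the other way. Dcn was at 379.9, 52.4, 54.3 and 87.6 CPM in Mecom-only cells against 743, 344, 399.95 and 654 (log2 -2.25, edgeR adjusted p = 1.87e-08), and Lum fell by 1.09, with an adjusted p of 0.43 in DESeq2. Pdlim3, a protein of the actin cytoskeleton, fell by 3.42 and Pla2g7, a lipase, by 3.13, without overlap between the groups. Col18a1 rose by 2.77, and the potassium channel gene Kcnd2 by 2.63, Tmem132d by 3.05 and Zfp804a by 2.35. With the rule on thinned counts, the Zfp804a call was lost at log2 1.30. It was also lost at 1.59 when cells carrying markers of other cell types were left out. Csmd1 fell by 2.63 in edgeR but had an adjusted p of 0.518 in DESeq2. Of 17 stress genes, 7 were higher in Mecom-only cells, among them Fos by 0.56, lost without WT replicate 2 at log2 0.46. Of these 7, 4 kept the call without replicate 1, 1 without replicate 2, 3 without replicate 4 and 2 when cells carrying markers of other cell types were left out, and their part in the other differences was not tested.

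**Figure D5:**
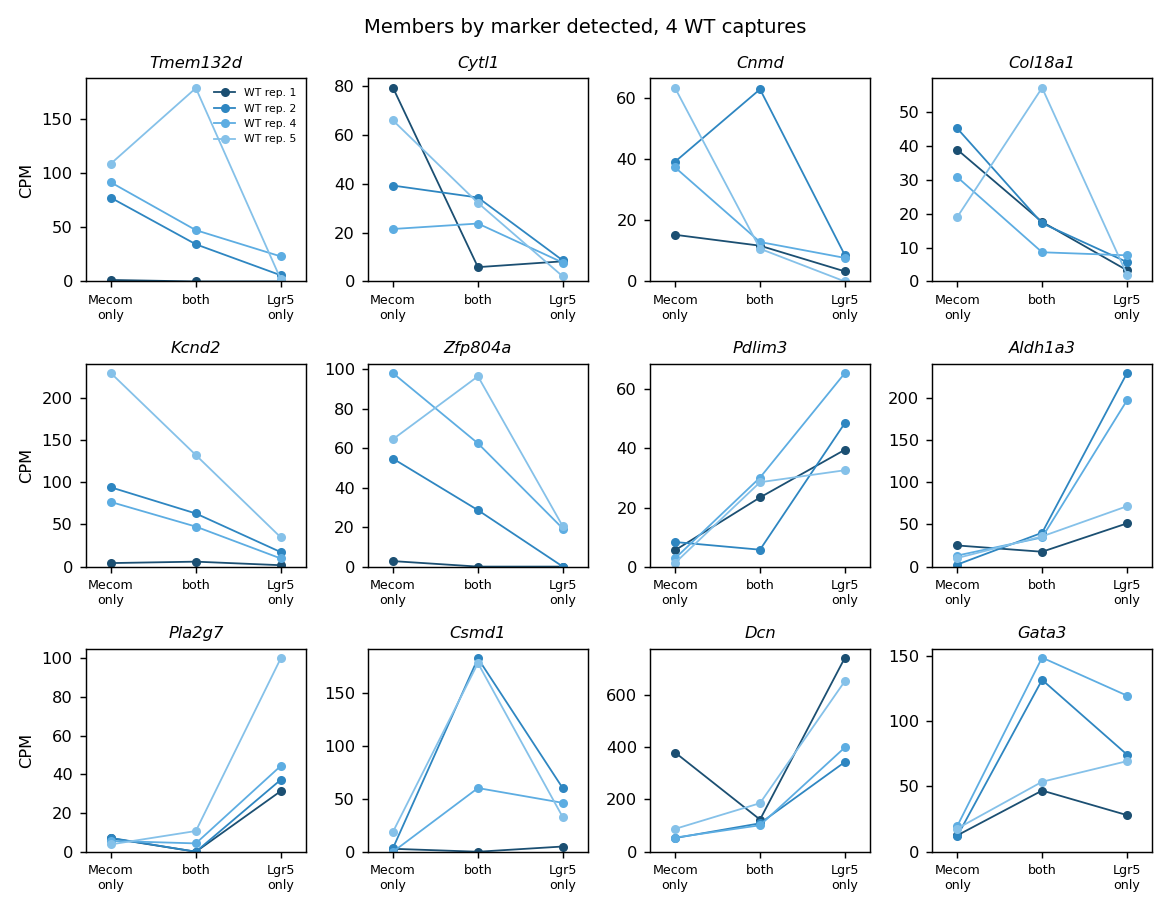
CPM of the 12 named genes in Mecom-only members, members with both and Lgr5-only members, with 1 point per WT capture (n = 4). Aldh1a3, Pdlim3, Pla2g7, Dcn and Gata3 are higher in Lgr5-only cells, and Cytl1, Cnmd and Col18a1 in Mecom-only cells, in each of the 4 captures.

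Members with both Mecom and Lgr5 were left out of that test, and the genes given for them were picked after their values were seen, as a description with no test. CPM for these classes counts the 10 genes of the rule in the total, which the CPM of tested genes leaves out. Dkk1 stood at 234, 206, 183 and 132 CPM in the 18, 35, 73 and 28 cells with both, a mean of 189 ± 43.2 (SD, n = 4). The means were 22.8 ± 13.3 in Mecom-only cells, 36.6 ± 14 in Lgr5-only cells, 8.19 in Pax9-only cells and 13.3 in cells with none of the 3 genes. A Dkk1 UMI was found in 44.4%, 22.9%, 30.1% and 21.4% of cells with both, and on average in 6.15% of Mecom-only and 8.13% of Lgr5-only cells. In every WT capture the cells with both had the highest Dkk1 level of all these classes. Prokr2Cre library 1 held 215 CPM in 5 such cells, and library 2 held 14.1 CPM, 1 UMI, in 4.

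Meis2 was also highest in cells with both in every WT capture, at 351, 715, 879 and 714 CPM. Its mean was 307 in Mecom-only cells, 189 in Lgr5-only cells and 439 in cells with Mecom or Lgr5 but no Pax9. Gata3 was at 95.2 ± 52.4 CPM in cells with both and 72.8 ± 37.4 in Lgr5-only cells. These SDs are over captures and do not measure the spread of the difference within a capture. Aldh1a3 was at 31.9 ± 9.88 CPM in cells with both, between 12.6 in Mecom-only and 137 in Lgr5-only cells. Inhba was likewise between, at 154 ± 47.3 against 94.1 and 274 CPM.

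The Mecom-only and Lgr5-only difference rested on few cells in the Prokr2Cre libraries, 39 and 6 in library 1 and 9 and 21 in library 2. Of the 12 named genes, 6 kept the WT direction in library 1, with 3 opposite (Cnmd, Pdlim3 and Pla2g7) and 3 ties, and 9 in library 2, with 1 opposite (Col18a1) and 2 ties. Of 73 called genes of the lists, 55 kept it in library 1 and 54 in library 2. Dcn kept it in both, with ratios of 0.0556 (0.0201 to 0.135) and 0.0508 (0.00126 to 0.296). Cxcl12 was 16.1 times as high in Mecom-only cells of library 1 (4.39 to 134) and 1.07 times (0.653 to 1.72) in library 2. Foxp2 was 15.5 times as high (8.90 to 28.9) in library 2, and in library 1 Lgr5-only cells held 0 UMIs of it against 26. Each ratio compares 2 classes of cells within 1 library, and its interval covers counting error only.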

How the data were processed

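Matrices of raw UMI counts per gene and barcode, as deposited by the authors, were used for 6 of 7 libraries. Counting used Cell Ranger 6.0.1, 7.0.0 or 6.1.2 per the file headers, while the submitters' processing notes name Cell Ranger 4, Seurat 4.3.0 and mm10. A barcode counted as a cell with 500 or more genes detected and a mitochondrial share of no more than 10%, and 30323 genes shared by all libraries were used, holding 99.1% to 99.8% of UMIs. Scrublet's automatic threshold marked at most 0.333% of barcodes and was judged not to have worked, so doublets stayed in, and removing the highest scores was an alternative. Counts were summed per capture and class and tested with edgeR 4.0.16 in R 4.3.3 (TMM, filterByExpr, quasi-likelihood), with DESeq2 1.42.0 as an alternative. Both classes of a comparison come from the same library, so the capture is the pair and the block. On simulated counts the test recovered 87 of 100 genes changed 2-fold and 98 of 100 changed 4-fold for members against other mesenchyme. Of its 202 calls, 17 were false. Against Pax9-only cells it recovered 94 and 100, with 11 false of 205 calls. Between Mecom-only and Lgr5-only cells it recovered 90 and 100, with 8 false of 198. The changed genes had a mean summed count of at least 20, so recovery at lower counts was not tested. Named genes had an adjusted p below 0.05, the same direction in all captures and a mean of at least 20 CPM in the higher class; the 12 largest rises and falls were named against other mesenchyme and the 6 largest in the other comparisons, beside genes of the lists. The members, lists and tests were chosen with earlier results of these data known. Some listed genes count in the list totals but are not reported here by name or in the counts of kept calls. Positions are from GENCODE M21 on GRCm38 (mm10).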

Additional observations from a re-analysis of the deposited data

Results flagged for a closer look

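Among 53 measures over the 4 WT captures, 5 had a single capture far from the other 3 (a gap, as a share of the whole range, above Dixon's critical value for 4 samples), and chance flags about 1 in 20. The share of members that were Mecom-only was 63.9% in WT replicate 2 and 51.2% to 52.2% in the others. The remaining flags are log2 ratios of CPM + 1. Zfp804a, members against other mesenchyme, was 0.57 in WT replicate 1 and 1.99 to 2.13 elsewhere. Between Mecom-only and Lgr5-only cells, Zfp804a was 5.80 in WT replicate 2, where Lgr5-only cells held 0 UMIs, against 1.62 to 2.29 elsewhere. Cnmd was 6.01 in WT replicate 5, again with 0 UMIs in Lgr5-only cells, against 1.92 to 2.14. Dcn was -0.97 in WT replicate 1 and -2.89 to -2.69 in the others.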

How the results depend on the processing

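The 24 genes named against other mesenchyme kept their direction in every alternative that tested them, and their call in every one with the capture as block. Of the 12 genes named in each of the other comparisons, Itgbl1 and Prtg against Pax9-only cells and Zfp804a and Csmd1 between Mecom-only and Lgr5-only cells lost theirs in at least 1 blocked alternative. The other called genes followed were list genes outside the named ones, together with picked genes on no list such as Gata2. Their totals therefore differ from the 172, 71 and 73 called list genes given above. Of them, 94 of 166, 35 of 67 and 26 of 69 kept their call when each WT replicate was left out. Only 77, 21 and 14 kept it in every blocked alternative that tested them, and between Mecom-only and Lgr5-only cells DESeq2 kept 23 of 68 and the cells without other markers 33 of 64. Without the replicate block, which removes the pairing of classes within a capture, the calls fell from 1370 to 7, from 445 to 0 and from 276 to 0 in the comparisons with other mesenchyme, with Pax9-only cells and between Mecom-only and Lgr5-only cells. Leaving out each WT replicate gave 907 to 1162, 281 to 356 and 164 to 305 calls, fewest without replicate 2, 4 and 2. DESeq2 gave 933, 200 and 81 calls. No filter on low counts gave 1985 (653 higher, 1332 lower, median log2 -0.14) calls against other mesenchyme and 688 against Pax9-only cells. With the rule on thinned counts, the cells were chosen anew and their full counts were summed, so depth was not equal in these fits. This gave 269 calls against Pax9-only cells, 150 between Mecom-only and Lgr5-only cells, and a share of 4.71%. Cells of 5000 to 20000 UMIs gave 172 between Mecom-only and Lgr5-only cells. Leaving out cells with markers of other cell types, chosen after the data were seen, gave 811, 291 and 133 calls.

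Signs changed 11 times, Hbb-y being counted under both of its settings. With the rule on thinned counts, members against other mesenchyme, the log2 changes became -0.21 for Mki67, -0.12 for Nusap1, -0.066 for Pcna, -0.0094 for Plk1, -0.0071 for Top2a and 0.25 for Sox2. Dcc became 0.19 without cells carrying other markers. Hbb-y against Pax9-only cells became -0.36 without the highest doublet scores and -7.15 with the rule on thinned counts. Between Mecom-only and Lgr5-only cells chosen on thinned counts, Fosb became -0.0081 and Ube2c 0.13. The cause was not tested. The last comparison rested on few Lgr5-only cells, 42 to 82 a capture, and the effect of their number was not tested.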
